A study of Marchantia polymorpha subsp. ruderalis with 24 samples.

Results

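In thallus of the liverwort Marchantia polymorpha kept in constant light, 150 genes had lower transcript levels on the second day than on the first. They are 1.4% of the 10678 genes with a mean of at least 5 CPM (a gene's count scaled to a common library total), out of 20574 genes in the count table. The members were chosen by their measured levels, on 4 conditions: a mean of 5 CPM or more; a mean over the times of day 2 (48, 54, 60 and 66 h) of at most 0.7 times that over the times of day 1 (24, 30, 36 and 42 h); all 3 later libraries below all 3 earlier ones in at least 3 of the pairs 48 and 24 h, 54 and 30 h, 60 and 36 h, and 66 and 42 h; and a highest time mean under 1.5 times the lowest within at least 1 of the days. V chromosome genes and 7 peroxidase and proton pump genes were left out; 153 genes met the thresholds, of which 3 (MpPOD99, MpPOD118 and MpHA13) were among those 7. Since these values chose the members, the difference between the days is described below without a test.

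Of the 150 genes, 27 carry a symbol, and these fall mainly into a few known families. Class III peroxidases use hydrogen peroxide to oxidise phenolic compounds in the plant cell wall. Polyphenol oxidases are copper enzymes that oxidise phenols with molecular oxygen. Plasma membrane proton pumps (H+-ATPases) export protons at the cost of ATP, which acidifies the wall and drives uptake of nutrients. Cellulose synthase-like D proteins make wall polysaccharide and are known in flowering plants and mosses from tip-growing cells. HSP90 proteins are chaperones that help client proteins, among them kinases and receptors, to fold.

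The plants were of the male accession Takaragaike-1 (Tak-1), with no mutation named in the labels. They were grown from gemmae, the clonal propagules of the thallus, at 20 °C under a day of 12 h light with 12 h dark, and then kept in constant light. The labels give a light intensity of 50 to 60 µmol for all libraries. The later group comprised libraries of 48, 54, 60 and 66 h after that move and the earlier group those of 24, 30, 36 and 42 h, with 3 libraries at each time, 24 in all. The labels call the tissue young thallus, while the extraction text names gemmae as the frozen material, and they give neither the hour of the move nor whether replicates were separate cultures. All p-values therefore measure only the spread between these libraries, which may be technical. As a series after a single move with no parallel light-dark plants among these samples, time in constant light cannot be told apart from plant age. Library totals were 14929708 to 59194999 counts. Symbols were joined from a gene table of another annotation version by the digits of the identifiers, so a renumbered gene would carry a wrong symbol.

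Together the falling set took 0.755% to 1.14% of all counts of a library on day 2 (median 0.99%) and 0.929% to 1.81% on day 1 (median 1.55%). The lowest day 1 value came from replicate 2 of 42 h, at 0.929%, beside 1.41% and 1.28% in the other libraries of 42 h. That library was the lowest of its time for 110 of the 150 genes (73.3%), against 35.4% of all genes with 5 CPM or more. Other libraries stood apart in the same count: replicate 2 of 66 h was the lowest for 69.3% of members (51.1% of genes with 5 CPM or more), replicate 2 of 60 h for 66.7% (53.7%), replicate 3 of 54 h for 6.0% (42.9%) and replicate 1 of 36 h for 66.7% (34.1%). Replicate 2 of 42 h also held the smallest share of counts of MpVg01240, the most abundant V chromosome gene, at 0.301%, against 0.954% to 4.27% on day 2 and up to 7.22% on day 1. Without replicate 2 of 42 h, 192 genes met the rule, 144 of them members. Thallus contains many cell types, and in such bulk tissue fewer cells of a type cannot be told apart from less RNA per cell.

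**Figure D1:**
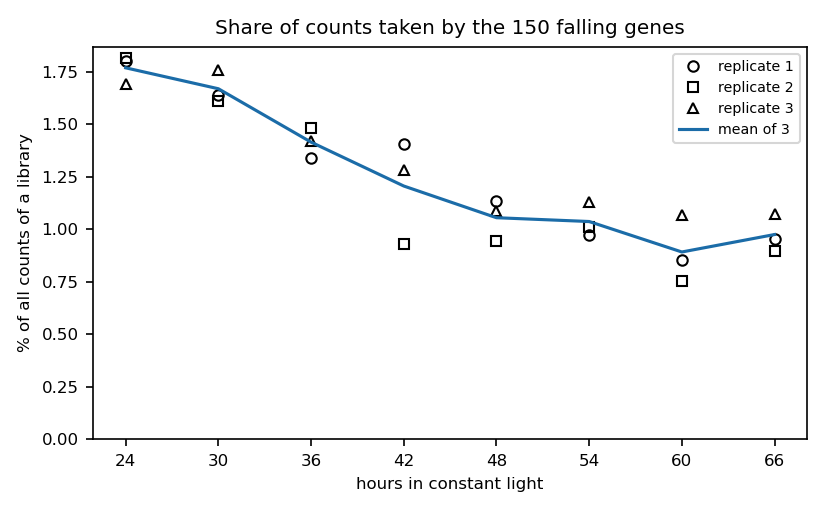
Percentage of all counts of a library (vertical axis) taken by the 150 falling genes, against hours in constant light (horizontal axis); symbols are the 3 replicates of a time and the line joins their means. The libraries of 48 to 66 h lie at 0.755% to 1.14% and those of 24 to 42 h at 0.929% to 1.81%, with replicate 2 of 42 h far below the other libraries of its time.

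The ratio of the mean of day 2 to that of day 1 had a median of 0.656 and ran from 0.42 to 0.699, while the median over all genes with 5 CPM or more was 0.999. Most members lay near the limit: 81 had ratios of 0.65 to 0.7, 55 of 0.6 to 0.65, and 14 were under 0.6. Only Mp7g02910, an identifier without a symbol, was below 0.5. The members just inside the limit were MpCE8.13 at 0.6987, Mp8g00320 at 0.6992 and Mp7g15930 at 0.6994, and the nearest genes just outside it were Mp1g16990 at 0.7003, Mp1g26330 at 0.7008 and Mp3g21960 at 0.7009. The replicates of a time spread more in the set than elsewhere, with a median coefficient of variation of 14.5% against 10.3% over genes with 5 CPM or more.

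The separation of the days came mainly from the first 3 pairs of times. The 3 libraries of 60 h lay below those of 36 h for 146 of the 150 genes (20.3% of genes with 5 CPM or more), those of 48 h below those of 24 h for 141 (background 14.6%), and those of 54 h below those of 30 h for 130 (background 17.4%). The last pair differed: 66 h lay below 42 h for 53 genes (background 7.55%). A pair is judged against the lowest earlier library, which at 42 h was replicate 2 for 110 of the 150 genes. How far this count rests on that library was not tested. The median ratios of the time means were 0.616 for 48 over 24 h, 0.614 for 54 over 30 h, 0.608 for 60 over 36 h and 0.826 for 66 over 42 h. All 4 pairs were apart in 20 genes and 3 in the other 130, where the backgrounds are 0.712% for 4 pairs and 7.21% for 3 or more. These shares are set by the rule. MpXPL was the single member in which all 12 libraries of day 2 lay below all 12 of day 1 (6 genes, 0.0562%, in the background).

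Among the 8 times, 24 h was the highest in 96 genes, 30 h in 34, 36 h in 16 and 42 h in 4. The lowest time was 60 h in 90 genes, 66 h in 51, 54 h in 8 and 48 h in 1. The rule asks for an even level on 1 day only, and the set splits by which day that was. In 42 genes, 3 with a symbol (MpHA2, MpHSP90-3 and MpNPF21), the range was under 1.5 on day 2 only. Their median level, relative to the gene's own mean, was 1.48, 1.37, 1.08 and 0.926 at the 4 times of day 1 and 0.846, 0.806, 0.681 and 0.798 at those of day 2. In 33 genes, 15 with a symbol, the range was under 1.5 on day 1 only; their median level was 1.29, 1.24, 1.26 and 1.14 at 24, 30, 36 and 42 h and 0.897, 0.945, 0.717 and 0.558 at 48, 54, 60 and 66 h. The lowest time was 66 h in 31 of these 33. In the remaining 75 genes, 9 with a symbol, both days stayed under 1.5, with medians of 1.35, 1.32, 1.17 and 0.993 on day 1 and 0.833, 0.802, 0.712 and 0.847 on day 2. The level of 66 h was a median of 1.21 times that of 60 h there. The ranges of the rule define these 3 groups, so the day on which each group's level moved is part of its definition.

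**Figure D2:**
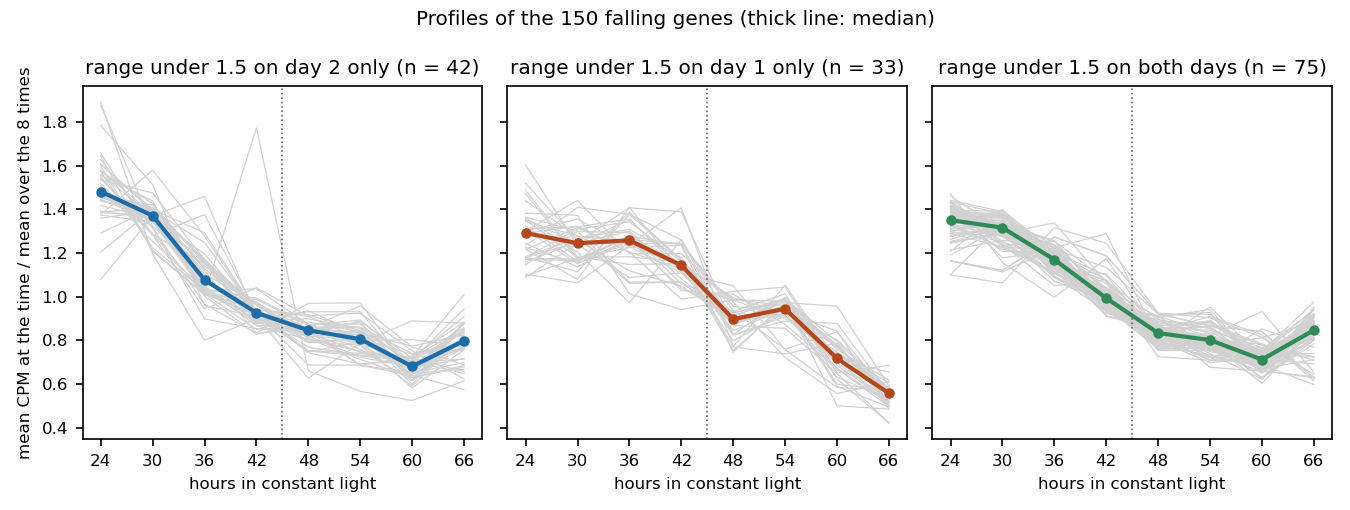
Mean CPM at each time divided by the gene's own mean over the 8 times (vertical axis) against hours in constant light; grey lines are single genes, thick lines the medians, and the dotted line parts day 1 from day 2. Genes even on day 2 only (n = 42) started at a median of 1.48 and were at 0.926 by 42 h, genes even on day 1 only (n = 33) were at 1.14 at 42 h and 0.558 at 66 h, and genes even on both days (n = 75) were at 0.993 at 42 h and 0.847 at 66 h.

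Whether levels also moved within a day was tested with edgeR's quasi-likelihood test of the linear trend over the 4 times of that day, given as the fitted log2 change over its 18 h. Within day 2, 32 of the 150 genes fell (background 5.70% falling, 4.59% rising) and none rose. Within day 1, 98 fell (background 12.7% falling, 13.4% rising), and again none rose; the threshold was an adjusted p of 0.05 over all 14414 genes tested. The median change was −0.15 within day 2 and −0.57 within day 1, against 0.02 and 0.00 over all genes tested. The 2 tests use the same libraries as the rule, and the rule keeps the range of 1 day small, so the counts are not independent of the choice of members. MpHA2 and MpCE8.13 were among the members that fell on both days.

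The count for day 1 rested in part on replicate 2 of 42 h: without that library 52 members fell, with a median change of −0.41, beside 1331 falling genes among 14610 tested. Without replicate 3 of 48 h, 16 members fell within day 2, beside 586 falling genes among 14614. With library totals in place of TMM scaling, 70 members fell within day 1, and the split over all genes was 1230 falling and 2568 rising, against 1832 falling and 1925 rising with TMM. The slope itself differed between the days in 16 members, 3 with a steeper fall on day 2 (background 2.13%) and 13 with a steeper fall on day 1 (background 1.68%). With library totals the split was 4 with a steeper fall on day 2 and 5 with a steeper fall on day 1, and over all genes 499 negative and 145 positive differences, against 307 and 242 with TMM. The count of 16 was 3 with replicate 2 of 42 h left out and 38 with replicate 1 of 42 h left out.

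**Figure D3:**
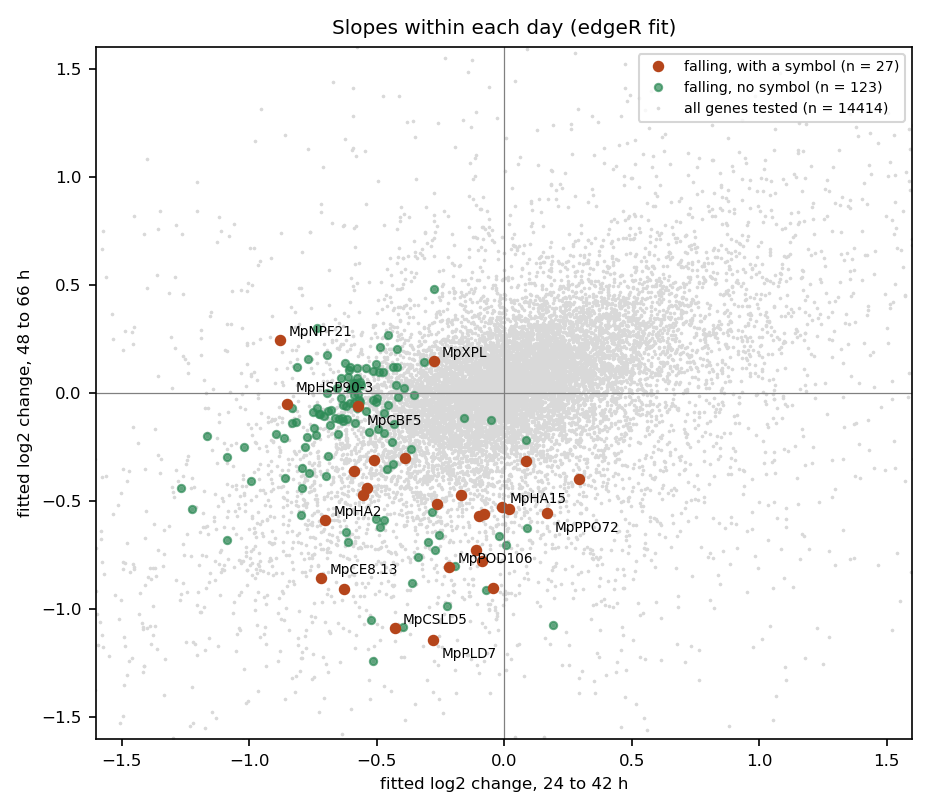
Fitted log2 change from 48 to 66 h (vertical axis) against that from 24 to 42 h (horizontal axis), from edgeR; red points are the 27 falling genes with a symbol, green points the 123 without one, and grey points all 14414 genes tested, of which those beyond the axes are not drawn. Genes without a symbol have a median of −0.12 on day 2 and −0.58 on day 1, and genes with a symbol one of −0.53 on day 2 and −0.28 on day 1.

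With day and linear terms fitted beside it, a 24 h rhythm was called by edgeR in 0 of 150 members (background 7.00%, 1009 genes). An unadjusted edgeR p under 0.05 was found in 11 members (background 18.3%), and DESeq2 called 2 (background 9.71%). The rule limits the range of time means within 1 day, which keeps genes of wide daily swing out of the set, so nothing is read from this count against the background. The nearest were Mp4g15980, with a fitted difference of 0.51 ± 0.16 (SE) on the log2 scale between peak and trough (edgeR adjusted p = 0.0871), and MpPPO55, with 0.44 ± 0.13 (edgeR adjusted p = 0.0877). With the day term alone, 64 members were called (background 29.6%). That model has no term for a trend within a day, which its cosine and sine can take up. These 64 calls are therefore not read as rhythms.

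The peroxidases and polyphenol oxidases made up 10 of the 27 genes with a symbol, 5 from each family; the families hold 65 and 23 of the 2047 genes with a symbol and 5 CPM or more. Of these 10 members, 8 were even on day 1, and not on day 2. MpPOD119 (Mp5g17150) had 8.89 to 24.5 CPM on day 2 (median 16.4) and 21.2 to 31.6 CPM on day 1 (median 25.4). Its time means over the 8 times were 24.5 ± 3.05, 27.2 ± 3.75, 27.9 ± 2.22, 24.1 ± 3.12, 15.7 ± 5.35, 19.9 ± 4.02, 16.1 ± 1.13 and 10.8 ± 2.91 CPM (SD, n = 3 each). All 4 pairs of times were apart, although the highest library of 54 h, at 24.5 CPM, overlapped with day 1. MpPOD106 (Mp5g13840) had 14.3, 10.4 and 9.9 CPM at 66 h against 23.4, 26.2 and 28.7 CPM at 42 h. Its fitted change within day 2 was −0.81 ± 0.16 (SE; edgeR adjusted p = 0.00209), and this call was kept under all 29 alternatives (adjusted p 3.42e-05 to 0.0133). Within day 1 its change was −0.22 ± 0.16 (edgeR adjusted p = 0.348). Of the 5 peroxidase members, only MpPOD106 passed the threshold within day 2. MpPOD119 missed it (−0.57 ± 0.20, edgeR adjusted p = 0.0762) and passed in 3 of 29 alternatives. MpPOD110 also passed in 3 and MpPOD32 in 1.

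The other peroxidases of the set had low counts. MpPOD111 (Mp5g14530) had a ratio of 0.542, with 2.64 to 9.28 CPM on day 2 (median 6.13) and 8.46 to 13.8 CPM on day 1 (median 11.2). Its neighbour MpPOD110 (Mp5g14520) had 2.75 to 11.3 CPM on day 2 (median 5.43) and 7.08 to 11.6 CPM on day 1 (median 9.09); replicate 3 of 54 h, at 11.3 CPM, lay within the range of day 1. MpPOD32 (Mp3g16820) was the peroxidase with an even level on both days, at 4.02 to 10.3 CPM on day 2 and 10.2 to 15.7 CPM on day 1. Near-identical copies in this family can share reads, which makes the values of single peroxidase genes uncertain.

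The 5 polyphenol oxidases had ratios of 0.62 to 0.694. MpPPO56, MpPPO14 and MpPPO72 are neighbours (Mp6g19020, Mp6g19030 and Mp6g19040). MpPPO14 was at 27.6, 32.2 and 30.9 CPM at 42 h and at 27.7, 28.6 and 29.5 CPM at 24 h, with all 12 libraries of day 1 between 27.2 and 32.5 CPM. On day 2 it ranged from 11.9 to 27.2 CPM, and the 3 libraries of 66 h were the lowest of all, at 11.9, 15.4 and 13.6 CPM. Its change within day 2 was −0.53 ± 0.15 (SE; edgeR adjusted p = 0.0222) and within day 1 0.02 ± 0.14 (edgeR adjusted p = 0.943); the difference of these slopes, −0.55 ± 0.21, did not pass (edgeR adjusted p = 0.149). MpPPO72 had a like pattern, with −0.55 ± 0.15 within day 2 (edgeR adjusted p = 0.0212). Both calls within day 2 were lost without replicate 3 of 48 h, at edgeR adjusted p of 0.151 and 0.0662, without replicate 1 of 66 h (0.112 and 0.0785) or replicate 3 of 66 h (0.0601 and 0.0728), and without the 3 libraries richest in MpVg01240 (0.0807 and 0.0828). That of MpPPO72 was also lost when replicate 2 of 48 h was left out (edgeR adjusted p = 0.0581). MpPPO56 missed the threshold within day 2 (−0.56 ± 0.19, edgeR adjusted p = 0.0656) and passed in 4 of 29 alternatives. The difference of slopes of MpPPO72 was not called with the main settings and passed in 6 of 29 alternatives. MpPPO55 (Mp6g17910) had all 4 pairs of times apart, with 20.4 to 43.8 CPM on day 2 (median 35.1) and 42.2 to 57.1 CPM on day 1 (median 48.4). In MpPPO23 (Mp6g21120) a single library stood out, replicate 1 of 42 h with 82.3 CPM, beside 34.3 and 41.5 CPM in the others of that time.

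**Figure D4:**
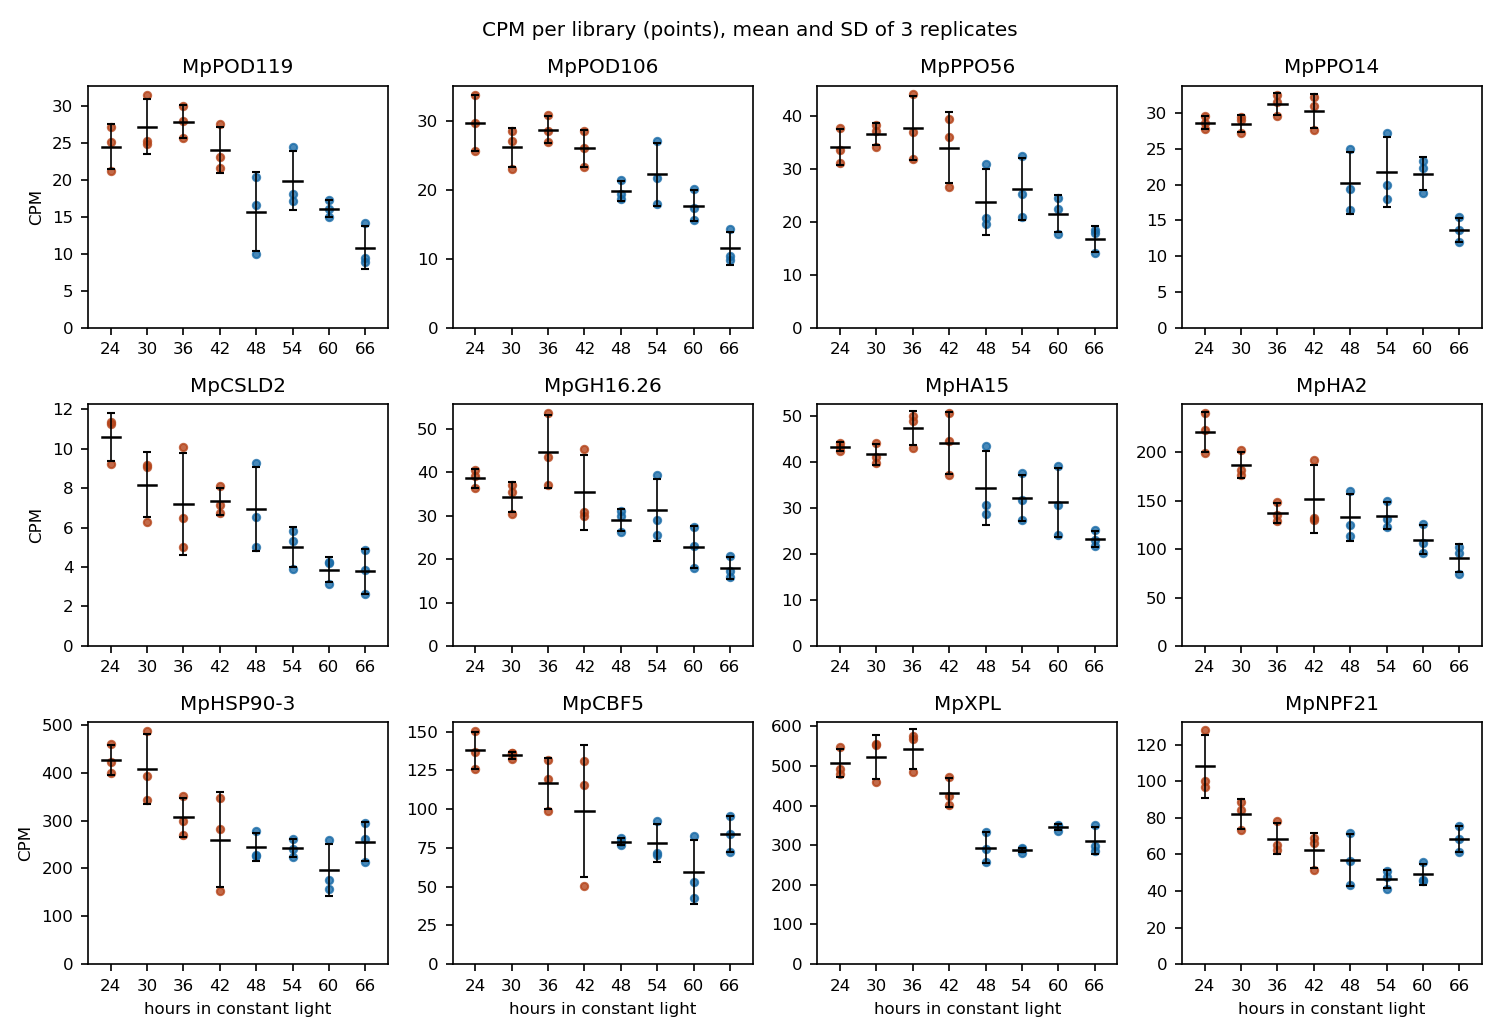
CPM (vertical axes, from 0) of 12 falling genes with a symbol against hours in constant light; red points are libraries of day 1, blue points libraries of day 2, bars the mean and SD of 3 replicates. MpPOD106, MpPPO14 and MpHA15 stayed level to 42 h and were lowest at 66 h (means 11.5, 13.7 and 23.3 CPM), while MpHSP90-3 and MpNPF21 declined from 24 h on and reached their lowest means at 60 and 54 h (197 and 46.5 CPM).

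Genes of wall polysaccharides formed the next group. The neighbouring cellulose synthase-like genes MpCSLD2 and MpCSLD5 (Mp2g05660 and Mp2g05670) had ratios of 0.588 and 0.61. MpCSLD2 had 3.87, 2.61 and 4.88 CPM at 66 h against 6.76, 8.11 and 7.16 CPM at 42 h, and 6.52, 5.03 and 9.28 CPM at 48 h against 9.22, 11.2 and 11.3 CPM at 24 h. The libraries of 48 and 24 h overlapped by 1 value, and the other pairs did not. It fell within day 2 by 0.91 ± 0.26 on the log2 scale (SE; edgeR adjusted p = 0.0241), with −0.63 ± 0.25 within day 1 (edgeR adjusted p = 0.0672). The slope of MpCSLD2 within day 1 passed in 3 of 29 alternatives. MpCSLD5 fell within day 2 by 1.09 ± 0.30 (edgeR adjusted p = 0.022). Both calls were lost without replicate 3 of 48 h (edgeR adjusted p = 0.15 and 0.101) or replicate 2 of 66 h (0.0983 and 0.0825), and that of MpCSLD2 also when replicate 1 of 66 h was left out (0.0628). The call of MpCSLD5 was also lost without the 3 libraries richest in MpVg01240 (edgeR adjusted p = 0.0548).

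The GH16 family holds enzymes that cut or rejoin wall glucans such as xyloglucan. Its members MpGH16.26 (Mp3g22120) and MpGH16.31 (Mp4g01200) fell within day 2 by 0.78 ± 0.18 (SE) and 0.73 ± 0.19 on the log2 scale (edgeR adjusted p = 0.00636 and 0.0149). MpGH16.26 had 15.8, 20.8 and 17.3 CPM at 66 h against 29.9, 45.4 and 30.9 CPM at 42 h. The call of MpGH16.31 was lost without replicate 3 of 48 h, replicate 2 of 66 h or replicate 3 of 66 h (edgeR adjusted p = 0.0674, 0.054 and 0.0538), and without the 3 libraries richest in MpVg01240 (0.0709). MpCE8.13 (Mp8g00060) belongs to the carbohydrate esterase family of pectin methylesterases, which remove methyl groups from pectin. It had 5.76, 4.49 and 5.35 CPM at 66 h against 9.3, 8.78 and 8.31 CPM at 42 h, and 9.37, 7.68 and 10.6 CPM at 48 h against 13.3, 12.3 and 13.2 CPM at 24 h. Both slopes of MpCE8.13 passed: −0.86 ± 0.17 within day 2 (edgeR adjusted p = 0.00182) and −0.72 ± 0.17 within day 1 (edgeR adjusted p = 0.00264). MpGT8.9 (Mp4g03950), of a glycosyltransferase family with pectin-building members in flowering plants, had all 4 pairs apart and fell within day 1 by 0.55 ± 0.19 (edgeR adjusted p = 0.0394; 0.0163 to 0.141 over 29 alternatives, of which 8 lost the call).

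The proton pumps MpHA2 and MpHA15 had unlike time courses. MpHA2 (Mp3g21600) had 102, 95.6 and 74.8 CPM at 66 h against 192, 132 and 130 CPM at 42 h, and 125, 113 and 160 CPM at 48 h against 241, 223 and 200 CPM at 24 h. No library of a later time reached those of its earlier partner. MpHA2 fell within day 2 by 0.59 ± 0.16 (SE) and within day 1 by 0.70 ± 0.15 on the log2 scale (edgeR adjusted p = 0.0163 and 0.00175). The call of day 2 was lost without replicate 3 of 48 h (edgeR adjusted p = 0.102), replicate 3 of 66 h (0.0683) or the 3 libraries richest in MpVg01240 (0.0843). MpHA15 (Mp3g12440) stayed at 37.3 to 50.7 CPM through day 1 (median 43.8) and had 21.7 to 43.6 CPM on day 2 (median 29.7), with 21.7, 23.1 and 25.1 CPM at 66 h. Its change was −0.53 ± 0.16 within day 2 (edgeR adjusted p = 0.0378; 0.00684 to 0.235 over 29 alternatives, of which 8 lost the call) and −0.01 ± 0.16 within day 1 (edgeR adjusted p = 0.974). The next identifier, Mp3g12450, which has no symbol, had the same count as MpHA15 in all 24 libraries, so the 150 genes hold 149 distinct profiles.

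The chaperone genes MpHSP90-3 and MpHSP90-2 declined within day 1. MpHSP90-3 (Mp4g19750) had 399, 461 and 423 CPM at 24 h, then 393, 344 and 488 CPM at 30 h, 270, 351 and 299 CPM at 36 h, and 347, 152 and 281 CPM at 42 h. On day 2 it stayed at 156 to 294 CPM (median 235). Its lowest library of day 1, replicate 2 of 42 h at 152 CPM, lay below every library of day 2. The fitted change was −0.05 ± 0.21 (SE) within day 2 and −0.85 ± 0.21 within day 1 (edgeR adjusted p = 0.922 and 0.00407), and the difference of the slopes, 0.80 ± 0.29, did not pass (edgeR adjusted p = 0.141). That difference passed in 1 of 29 alternatives. MpHSP90-2 (Mp2g04900) had 117 to 191 CPM on day 2 (median 165) and 152 to 304 CPM on day 1 (median 246). It fell within day 1 by 0.51 ± 0.14 (edgeR adjusted p = 0.0108), a call lost without replicate 2 of 42 h (edgeR adjusted p = 0.0709). Mp2g04890, the neighbour of MpHSP90-2, had 237 to 377 CPM on day 2 and 270 to 626 CPM on day 1.

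MpCBF5 (Mp4g12650) is named for the pseudouridine synthase of the H/ACA small nucleolar ribonucleoproteins, which modifies ribosomal RNA. It had 53.2, 42.8 and 82.4 CPM at 60 h against 98.9, 131 and 119 CPM at 36 h, and 81.3, 76.9 and 78.6 CPM at 48 h against 137, 150 and 126 CPM at 24 h. At 42 h its libraries were far apart, at 131, 50.5 and 115 CPM. The low value was again replicate 2 of 42 h, and the pair of 66 and 42 h was not apart. Its change within day 1 was −0.57 ± 0.22 (SE, edgeR adjusted p = 0.0652) and passed in 4 of 29 alternatives.

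MpXPL (Mp3g23340) was lower at 48 h than at 42 h in every library, with 289, 259 and 334 CPM at 48 h against 401, 472 and 425 CPM at 42 h. Over all times it had 259 to 351 CPM on day 2 (median 296) and 401 to 576 CPM on day 1 (median 488). Its change within day 2 was 0.15 ± 0.10 (SE; edgeR adjusted p = 0.42) and within day 1 −0.28 ± 0.10 (edgeR adjusted p = 0.0456; 0.0215 to 0.169 over 29 alternatives, of which 19 lost the call). MpNPF21 (Mp5g04910) belongs to the family of nitrate and peptide transporters. It had 128, 96.7 and 100 CPM at 24 h and 66.2, 51.5 and 69 CPM at 42 h, then 50.9, 41.1 and 47.5 CPM at 54 h and 68.3, 61.4 and 75.4 CPM at 66 h. Its slope was 0.24 ± 0.14 within day 2 (edgeR adjusted p = 0.338) and −0.88 ± 0.14 within day 1 (edgeR adjusted p = 8.79e-05). The difference of the slopes was 1.12 ± 0.20 (edgeR adjusted p = 0.00393; 2.43e-05 to 0.018 over 29 alternatives), the single such difference among members with a symbol.

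MpPLD7 (Mp1g19150), of the phospholipases D that release phosphatidic acid from membrane lipids, had 2.43, 2.14 and 2.85 CPM at 66 h against 6.15, 5.04 and 5.91 CPM at 42 h. It fell within day 2 by 1.14 ± 0.28 (SE) on the log2 scale (edgeR adjusted p = 0.00922), which missed the threshold without replicate 3 of 48 h (edgeR adjusted p = 0.0525). MpMTPSL-like (Mp5g18940), a microbial terpene synthase-like gene of a family that makes liverwort terpenes, had 31 to 57.6 CPM on day 2 (median 39.8) and 46.5 to 86.7 CPM on day 1 (median 68.6). It fell within day 1 by 0.59 ± 0.17 (edgeR adjusted p = 0.0152), a call lost without replicate 1 of 24 h (0.057), replicate 1 of 42 h (0.0512) or replicate 2 of 42 h (0.0752). The immune receptor genes MpNBS-LRR17 (Mp5g21860) and MpNBS-LRR15 (Mp5g08960) had ratios of 0.636 and 0.664 and no slope called on either day. MpNBS-LRR17 had 3 to 5.98 CPM on day 2 and 5.74 to 8.94 CPM on day 1, so the days overlapped narrowly.

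Of the 123 members without a symbol, 21 fell within day 2 (17.1%) and 90 within day 1 (73.2%). Of the 27 with a symbol, 11 (40.7%) and 8 (29.6%) did. The background was 5.70% falling within day 2 and 12.7% within day 1. Of the 33 genes even on day 1 only, 15 carry a symbol, and the definition of that group has their level move on day 2. Nothing is therefore read from the contrast by symbol. The member with the highest mean CPM, which is not corrected for gene length, was Mp4g11410. It had 667 to 1100.3 CPM on day 2 (median 938) and 682 to 1996 CPM on day 1 (median 1337), with time means of 769 ± 138 CPM at 60 h and 1837 ± 138 CPM at 24 h (SD, n = 3 each). Its change was −0.30 ± 0.16 (SE) within day 2 and −1.09 ± 0.16 within day 1 (edgeR adjusted p = 0.267 and 2.08e-05). Mp1g21640, Mp1g05340 and Mp1g17920, also among the highest, declined within day 1 by 0.79 to 0.99 on the log2 scale, each with an edgeR adjusted p under 0.05 in all 29 alternatives. The steepest change within day 1 was that of Mp1g29520, with 132, 139 and 139 CPM at 36 h against 317, 297 and 243 CPM at 24 h (−1.27 ± 0.16, edgeR adjusted p = 5.78e-06). Mp6g01440, Mp8g13360 and Mp3g20310 followed with −1.22, −1.16 and −1.09, each with an edgeR adjusted p under 0.05.

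Within day 2 the steepest changes among members without a symbol were those of Mp3g14000 (−1.24 ± 0.19 SE, edgeR adjusted p = 0.000124), Mp1g11430 (−1.08 ± 0.16, edgeR adjusted p = 9.22e-05) and Mp1g18220 (−1.07 ± 0.21, edgeR adjusted p = 0.00149). Mp3g14000 had 10.5, 6.03 and 10.8 CPM at 66 h and 19.8, 17.7 and 22.9 CPM at 48 h. All 3 calls held under the 29 alternatives. Mp4g15980 had a course of its own, with time means of 564 ± 55.9, 717 ± 48.7, 764 ± 16.6, 475 ± 107, 328 ± 71, 412 ± 36.8, 465 ± 108 and 460 ± 39.1 CPM (SD, n = 3 each) from 24 to 66 h. It was highest at 36 h and lowest at 48 h, the 1 member with its lowest time there. A rise of Mp4g15980 within day 2 was not called by edgeR with the main settings. It was called in 8 of 29 alternatives, among them DESeq2 (0.46, DESeq2 adjusted p = 0.0255). Mp7g02910, with the lowest ratio of the set, had 2.82 to 6.94 CPM on day 2 (median 4.94) and 6.76 to 23.3 CPM on day 1 (median 9.89); the value of 23.3 came from replicate 1 of 42 h, beside 10.5 and 9.51 CPM in the other libraries of that time. Mp3g23860 had a ratio of 0.525, with 9.18 to 32.4 CPM on day 2 and 18 to 57 CPM on day 1.

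Of the 150 members, 21 (14%) adjoined another member in identifier order, while 184 of the 10678 genes with 5 CPM or more (1.72%) adjoined a member. This was not tested, since neighbouring or overlapping genes can share reads and the counting settings are not stated in the labels. There were 10 such runs. Of these, 5 held genes with a symbol: MpPPO56, MpPPO14 and MpPPO72; MpPOD110 and MpPOD111; MpCSLD2 and MpCSLD5; MpHSP90-2 with Mp2g04890; and MpHA15 with Mp3g12450, the pair with identical counts.

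Other genes of the same families, none of them members, were also lower on day 2 in part (background 16.3% lower, 18.3% higher). Of 114 other peroxidases tested, 44 were lower and 15 higher at an edgeR adjusted p under 0.05. Of 15 other proton pumps 11 were lower and none was higher; the counts of both families include the 7 genes left out of the set. Among the other proton pumps the ratios of means of 5 CPM or more ran from 0.506 in MpHA5 to 1.06 in MpHA3, the pump with the highest mean CPM. Of 37 other polyphenol oxidases 5 were lower and 3 higher. Of 8 other CSLD genes 4 were lower and none was higher. Of the 3 other HSP90 genes 2 were lower: MpHSP90-4 had 234 and MpHSP90-1 had 551 CPM on day 2, against 330 and 739 CPM on day 1 (means over the times; edgeR adjusted p = 4e-06 and 3.5e-05).

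The other families of members were mixed. Of 19 other NBS-LRR genes none was lower and 4 were higher, of 5 other phospholipases D none was called, and of 22 other NPF transporters 3 were lower and 6 higher. Of 29 other GH16 genes 9 were lower and 6 higher, of 10 other CE8 genes 2 were lower, of 10 other GT8 genes 1 was lower and 2 higher, and of 6 other terpene synthase-like genes 1 was lower and 2 higher. The set held no member of the lists of transcription factors (262 tested, 33 lower and 64 higher), core clock genes (8 tested, 0 lower and 4 higher), light signalling genes (17 tested, 1 lower and 6 higher), receptor-like kinases (78 tested, 5 lower and 13 higher) or autophagy genes (21 tested, 0 lower and 16 higher). It also held no cytochrome P450 (90 tested, 14 lower and 16 higher) and no pentatricopeptide repeat gene (72 tested, 18 lower and 6 higher). Absent too were ABC transporters (92 tested, 28 lower and 9 higher) and phenylpropanoid and flavonoid genes (43 tested, 6 lower and 4 higher). No dirigent gene (40 tested, 6 lower and 9 higher) or expansin (30 tested, 7 lower and 2 higher) was a member. Nor was any histone (25 tested, 2 lower and 1 higher) or cell cycle gene (22 tested, 6 lower and 2 higher). Protein phosphatases 2C (19 tested, 2 lower and 6 higher) and lipoxygenases (15 tested, 3 lower and 1 higher) held none either. These lists hold 8 to 224 genes of 5 CPM or more each, and 1.4% of such genes are members, so nothing is read from their absence.

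**Figure D5:**
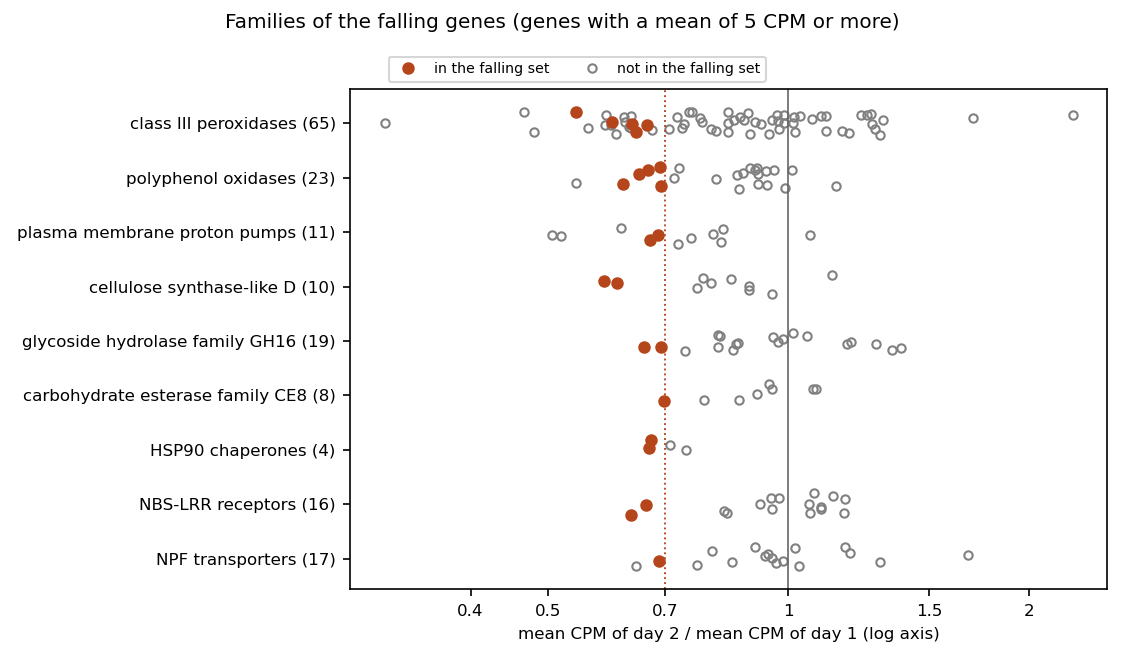
Ratio of the mean CPM of day 2 to that of day 1 (horizontal axis, log scale) for genes with a mean of 5 CPM or more in 9 families, 1 point per gene, with the number of genes in parentheses; filled red points are in the falling set, open points are not, and the dotted line marks the limit of 0.7. Most peroxidases and proton pumps lie left of 1, with family medians of 0.854 and 0.726, while the NBS-LRR receptors outside the set lie around 1 (family median 1.02).

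Markers of cell types were measured beside these changes. The photosynthetic thallus genes MpRBCS and MpNOP1 were present at means of 287 and 73 CPM on day 2 and 225 and 69.6 CPM on day 1, with MpRBCS higher on day 2 (edgeR adjusted p = 6.41e-05). The summed level of the 4 oil body markers found was 40.9 to 71.7 CPM on day 2 and 52.9 to 76.7 CPM on day 1, with 1 of the 4 lower (MpC1HDZ, edgeR adjusted p = 0.0363). That of the 4 listed gemma cup genes was 62.4 to 97 CPM on day 2 and 77.6 to 97.9 CPM on day 1. MpKAR held most of this sum, at means of 52 CPM on day 2 and 61.5 CPM on day 1. It alone was called, as lower (edgeR adjusted p = 0.000618). On day 2 and day 1, MpGCAM1 had means of 10.4 and 6.8 CPM, MpCLE1 6.3 and 5.5 CPM, and MpCLE2 11.1 and 12.2 CPM. The 2 sexual organ markers found summed to 0.105 to 0.795 CPM on day 2 and 0.133 to 0.989 CPM on day 1. The 32 cell division genes summed to 1660 to 2540 CPM on day 2 and 1870 to 2460 CPM on day 1, with 3 lower and 2 higher of 29 tested. None of the 3 rhizoid markers was matched by symbol. The part of these cell types in the lower levels of the set was not tested.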

How the data were processed

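Messenger RNA of 24 libraries was measured by poly(A)-selected, stranded sequencing from 100 ng of total RNA, per the labels' protocols. The unit of the deposited table is the raw count, a whole number for each gene and library, with no normalization by the authors visible in the values. Neither aligner, counting program, strand setting nor genome build was stated in the labels. Symbols were looked up in RefSeq's genes for MpTak2_v7.1 by the digits of the locus tag: 17641 of 20574 identifiers had an entry and 3091 a symbol. Its coordinates were not used, and no sequence was used here.

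CPM for the rule were counts over column totals. Tests used R 4.3.3 and edgeR 4.0.16: filterByExpr (minimum count 10, which left 14414 genes), TMM scaling, 1 mean per time, quasi-likelihood F-tests, Benjamini-Hochberg adjustment over all genes tested and a threshold of 0.05. The slope contrasts weight the 4 times of a day linearly. The rhythm model had cosine and sine of 24 h beside day and hours. The procedure was tested on simulated data with known changes between the days, within each day and in the rhythm. The difference of slopes was not simulated. Simulated counts were drawn independently, so shifts of many genes in a single library were not covered. Alternatives were DESeq2 1.42.0, column totals, no filter, a replicate block, leaving out the 3 libraries richest in MpVg01240, leaving out each library, other rhythm models, and other limits of the rule.

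The members, the gene lists and the tests were chosen with earlier results of these data known. Named genes were all members with a symbol, the 10 with the highest mean CPM, the 5 with the lowest ratio, the 5 with the steepest called slope of each day, and the 3 nearest the limit on each side. Lists were matched by symbol. Those of GH16, GT8, NBS-LRR, phospholipase D and terpene synthase-like genes were added because they hold members. The lists of CSLD, HSP90 and NPF genes are parts of broader lists planned for wall, stress and transport genes, and each part holds members. Their counts are therefore not those of an unselected list. Other planned lists, among them hormone, photosystem, Calvin cycle and tetrapyrrole genes, were not run. No pair of replicates differed as little as counting noise allows. Same-numbered libraries of different times did not deviate together (84 pairs, correlations of −0.501 to 0.448, 30 of them over 0.1), so numbers were not taken as pairs.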

Additional observations from a re-analysis of the deposited data

Results flagged for a closer look

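In 5 of the genes named above the slope within day 2 differed from that within day 1 by edgeR's test of the difference itself. MpNPF21 had a difference of 1.12, with 0.24 within day 2 and −0.88 within day 1. Mp1g29520 had 0.83 (edgeR adjusted p = 0.0473; −0.44 within day 2 and −1.27 within day 1), Mp4g11410 had 0.79 (edgeR adjusted p = 0.0472) and Mp1g05340 had 0.7 (edgeR adjusted p = 0.0315; −0.19 within day 2 and −0.89 within day 1). Mp1g18220 went the other way, with −1.27 (edgeR adjusted p = 0.0184; −1.07 within day 2 and 0.19 within day 1). MpNPF21 passed in all 29 alternatives. The calls were lost in 24 of 29 for Mp4g11410 (edgeR adjusted p 0.0104 to 0.202), in 21 for Mp1g29520 (0.0121 to 0.111), in 6 for Mp1g05340 (0.00482 to 0.0869) and in 2 for Mp1g18220 (0.00114 to 0.0843). The rule limits the range of 1 day, which bears on the slope of that day.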

How the results depend on the processing

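The rule gave 152 genes with TMM-scaled CPM, 138 of them shared, and 132 to 192 with any 1 library left out; a ratio limit of 0.6 left 14 and a range limit on both days 75. Members falling within day 1 numbered 52 to 106 with 1 library left out. Members falling within day 2 numbered 16 to 36 with 1 library left out and 20 without the 3 libraries richest in MpVg01240. The least stable count was that of members whose slope differs between the days: 3 to 38 with 1 library left out, 28 with DESeq2, 9 with column totals and 1 without those 3 libraries. Over all genes that count was 549, and 898 with DESeq2, 156 without those 3 libraries and 249 to 725 with 1 library left out. Members with a rhythm numbered 2 with DESeq2, 7 with the linear term alone, 64 with the day term alone, 1 at a period of 22 h, 2 at 26 h and 0 to 2 with 1 library left out. Over all genes the rhythm count of 1009 became 2700 with the linear term alone, 4269 with the day term alone and 613 at 22 h. The cause of these shifts was not tested. Column totals moved the median change of all genes within day 1 to 0.09 on the log2 scale. The replicate block gave 31 members falling within day 2, 98 within day 1 and 15 with differing slopes, against 32, 98 and 16 without it; 9 of the 24 libraries correlated best with their own number. Among the slopes and slope differences of the named members, no call went with a change of sign under an alternative. Signs of slopes without a call were not compared. Genes near 5 CPM rest on few counts in the smaller libraries.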
